A study of Mus musculus with 24 samples.

Results

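NRF2, the transcription factor encoded by Nfe2l2, and 9 of its antioxidant target genes were followed in quadriceps femoris muscle: Hmox1, Nqo1, Gclc, Gclm, Txnrd1, Srxn1, Slc7a11, Gsr and Osgin1. The 10 genes were found by their symbols among the 18669 genes of the count table, and all 10 passed the filter on low counts. NRF2 is held in the cytoplasm by KEAP1, which passes it to a CUL3 ubiquitin ligase for degradation. Oxidants and electrophiles block this step, and NRF2 then binds antioxidant response elements in DNA together with a small MAF protein, at sites that BACH1 can occupy as a repressor. Its targets make glutathione, regenerate thioredoxin, reduce quinones and break down heme. Hmox1 also has heat shock elements, the binding sites of HSF1, the main activator of heat shock protein genes.

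RNA was taken 4 h after treatment from wild type mice, from R6/2 mice, which express exon 1 of mutant HTT as a model of Huntington's disease, and from Hsf1-/- mice, all on a CBA x C57BL/6 F1 background. In the HS (heat shock) experiment, anaesthetised mice were warmed on a pad at 41.5 °C for 15 min, and their controls were held at 36.9 °C for 21 min. In the HSP990 experiment, mice received the HSP90 inhibitor NVP-HSP990 at 12 mg/kg by oral gavage, or its vehicle. Wild type and R6/2 mice were 12 weeks old, while Hsf1-/- mice were 10 weeks old in the HS experiment and 8 weeks old in the HSP990 experiment. Each of the 12 groups held 2 mice.

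Libraries held 22450177 to 46599238 counts, and each level below is a CPM value, a count divided by its library's TMM-adjusted total. The treatments and the knockout could be read in the data: 5 of 5 heat shock protein genes rose in wild type mice under each treatment, 3 of 5 rose after HS and 5 of 5 after HSP990 in R6/2 mice, and 0 of 5 passed edgeR's test in Hsf1-/- mice under either (Hsp90aa1 after HSP990 had an unadjusted p of 0.00874). Hsf1 itself was at 21.1 to 29.0 CPM in Hsf1-/- mice, 45.3 to 53.7 CPM in R6/2 mice and 52.9 to 68.5 CPM in wild type mice. Y-linked genes, 4 of them, summed to 0 to 4 counts in the wild type and R6/2 mice of the HS experiment and to at least 3916 counts in all other libraries. In the HS experiment genotype therefore cannot be told apart from sex and age where Hsf1-/- and wild type mice are compared, and in the HSP990 experiment it cannot be told apart from age. Where HS is set against HSP990, treatment cannot be told apart from handling. The same holds for sex in wild type and R6/2 mice and for age in Hsf1-/- mice. Skeletal muscle markers (7 genes) summed to 34805 to 78045 CPM in R6/2 mice and to 174554 to 235046 CPM in the other mice, and in whole tissue fewer cells of a type cannot be told apart from less RNA per cell.

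In untreated wild type muscle the 10 genes spanned a wide range of levels per kilobase of exon (RPKM, mean of control and vehicle groups). Txnrd1, the cytosolic thioredoxin reductase, was highest at 41.4 RPKM, followed by Srxn1 (sulfiredoxin, which repairs over-oxidised peroxiredoxins) at 25.9 RPKM and Nfe2l2 at 19.7 RPKM. The quinone reductase gene Nqo1 stood at 16.2 RPKM, the growth inhibitor gene Osgin1 at 14.5 RPKM and Gsr, which regenerates reduced glutathione, at 13.6 RPKM. Heme oxygenase 1, encoded by Hmox1, was at 6.71 RPKM, and the subunits of glutamate-cysteine ligase, Gclm and Gclc, which carries out the first step of glutathione synthesis, were at 4.50 and 4.42 RPKM. Slc7a11, the cystine importer, was nearly absent at 0.0174 RPKM, with 2 to 10 counts in each untreated wild type library. Neighbours in this order such as Osgin1 and Gsr, or Gclm and Gclc, were not separated by the spread between mice.

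**Figure D1:**
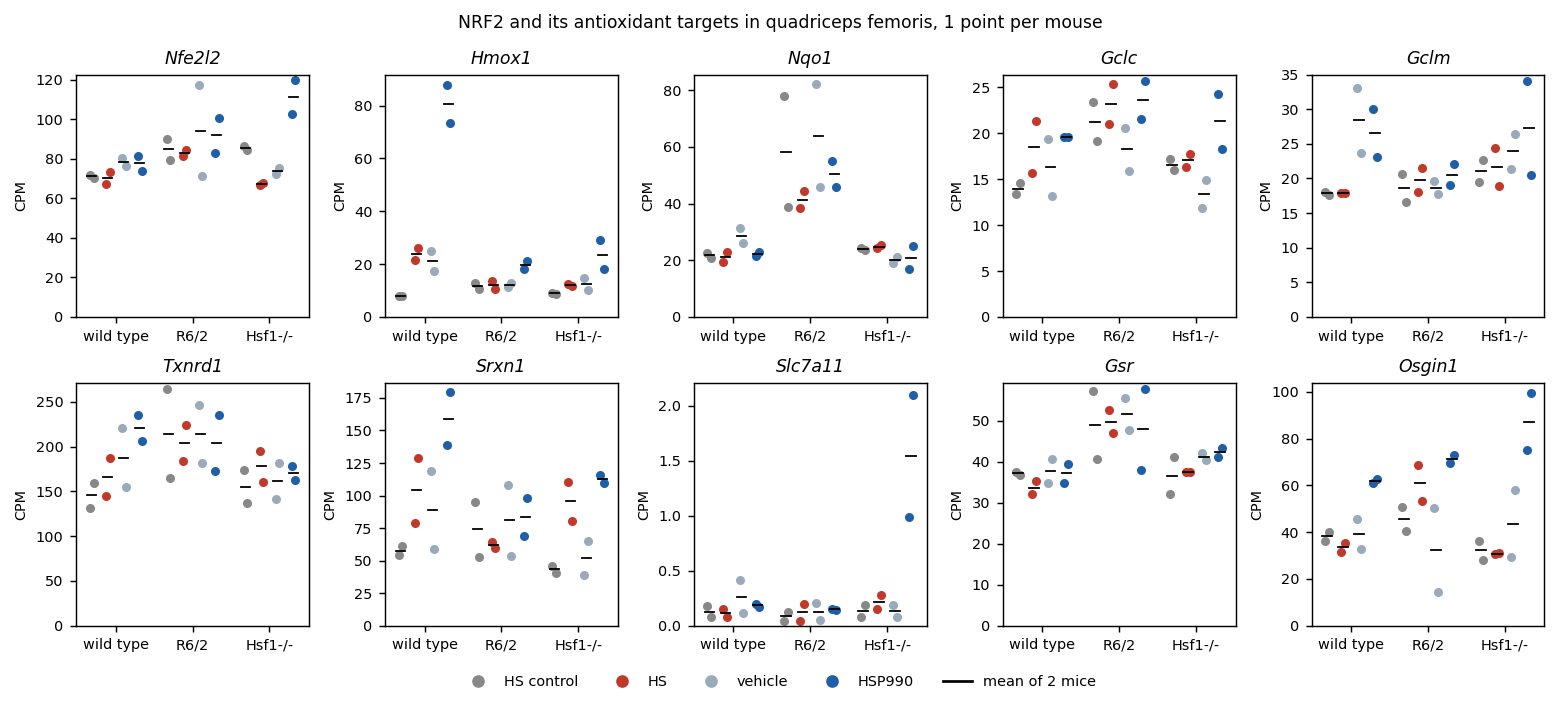
Level of each of the 10 genes (y axis, CPM after TMM scaling, each panel from 0) in 3 genotypes (x axis), with 1 point per mouse coloured by treatment and a bar at the mean of 2 mice. Hmox1 stands out in HSP990-treated wild type mice (87.8 and 73.6 CPM), Nqo1 is high in R6/2 mice under all 4 conditions, and Slc7a11 exceeds 0.5 CPM only in the 2 HSP990-treated Hsf1-/- mice.

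Promoter sequences were matched in RefSeq (GRCm38.p6) for 7 of the 10 genes, and the 250 bases before each start were searched on both strands for 5 motifs. The antioxidant response element core TGACNNNGC was found in 10.9% of all 18233 promoter windows and in those of Nfe2l2, Gclm and Txnrd1 (1 of 3 windows). The AP-1 site TGANTCA was in 6.15% of windows and occurred in those of Srxn1, which has 2 copies, and Osgin1. The Srxn1 copy nearer the start is followed by gc, and the Osgin1 copy is preceded by gc. Each thus differs by 1 base from TGACNNNGC on 1 of the strands, and the search counted exact matches only. The ATF4 composite site TGATGNAA, found in 2.75% of windows, occurred with 2 copies before Slc7a11. Paired heat shock units, TTCNNGAA in 6.33% and GAANNTTC in 5.82% of windows, were found before 0 of the 7 genes. No promoter entry was matched for Hmox1, Gclc and Gsr. Below are 3 of the windows, for the genes whose levels or motifs are set side by side with results further on, in lower case from 5′ to 3′ on the gene's strand with the motif in capitals (none of the motifs overlapped another).
Slc7a11, chr3:50443614-50443863, minus strand, ATF4 composite sites in capitals: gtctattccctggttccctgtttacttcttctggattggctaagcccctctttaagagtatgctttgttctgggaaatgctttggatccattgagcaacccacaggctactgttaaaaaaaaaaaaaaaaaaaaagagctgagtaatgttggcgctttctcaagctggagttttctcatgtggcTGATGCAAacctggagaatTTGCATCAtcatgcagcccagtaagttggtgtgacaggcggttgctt
Srxn1, chr2:152105274-152105523, plus strand, AP-1 sites in capitals: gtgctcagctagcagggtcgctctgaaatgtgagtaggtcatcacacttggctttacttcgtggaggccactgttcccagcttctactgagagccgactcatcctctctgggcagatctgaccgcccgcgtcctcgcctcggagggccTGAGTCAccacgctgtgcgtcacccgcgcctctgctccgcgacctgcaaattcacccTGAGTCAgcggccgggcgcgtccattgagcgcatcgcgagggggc
Gclm, chr3:122245307-122245556, plus strand, antioxidant response element core in capitals: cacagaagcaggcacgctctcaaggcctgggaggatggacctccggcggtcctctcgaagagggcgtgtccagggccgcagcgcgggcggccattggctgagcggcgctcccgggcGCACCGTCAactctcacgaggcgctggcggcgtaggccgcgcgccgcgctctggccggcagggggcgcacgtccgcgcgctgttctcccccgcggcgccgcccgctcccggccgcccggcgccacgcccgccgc

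HS in wild type mice raised 1 of the 10 genes, Hmox1 (mm9 chr8:77617490-77624495, plus strand), where 1.59% of all tested genes rose and 2.06% were called in either direction. Its level was 7.82 and 8.06 CPM in controls and 21.7 and 26.2 CPM after HS, so that the groups lay far apart. The log2 fold change was 1.59 (SE 0.236, adjusted p = 0.00147 from the quasi-likelihood test of edgeR, with Benjamini-Hochberg correction). It was called under every alternative setting tried and without any 1 of the 4 mice, the highest adjusted p being 0.0473 without the first control mouse. The red cell markers (3 genes, Hbb-b1, Hba-a2 and Alas2) summed to 23.0 to 30.5 CPM in these controls and to 37.5 to 76.1 CPM after HS, with 0 of 3 called, and macrophage markers (7 genes) to 30.7 to 39.8 and 35.8 to 40.0 CPM. Neutrophil markers (3 genes) summed to 0.112 to 0.630 CPM in controls and 2.95 to 3.95 CPM after HS, with 0 of 3 called. Their part in the Hmox1 result was not tested.

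The other 9 genes were not called after HS in wild type mice, and their log2 fold changes ran from -0.19 (Osgin1) to 0.85 (Srxn1). Of these, 1 of 9 had an unadjusted p below 0.05, as had 1627 of all 13754 tested genes. Srxn1 was at 54.1 and 61.1 CPM in controls and at 78.9 and 129 CPM after HS, without overlap but with mice of the treated group far apart (edgeR adjusted p = 0.373). Nfe2l2 was level, at 71.9 and 70.2 CPM in controls and 67.2 and 73.2 CPM after HS. The median log2 fold change of the 10 genes was -0.01, beside -0.01 over all tested genes. Both HS mice lay above both controls in 3 of the 10 genes (23.1% of all tested genes) and below them in 2 (24.6%). Gclc, the catalytic subunit of glutamate-cysteine ligase, was at 13.4 and 14.6 CPM in controls and 15.7 and 21.4 CPM after HS, a log2 difference of 0.40 (95% confidence interval -0.05 to 0.86). For its partner Gclm the interval was -0.48 to 0.48.

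After HS in R6/2 mice edgeR called 0 of the 10 genes, where it called 0.0436% of all tested genes, and DESeq2 called 0. An unadjusted p below 0.05 was found for 0 of 10, and for 1117 of all 13754 tested genes. Hmox1 was at 12.8 and 10.6 CPM in R6/2 controls and at 13.8 and 10.6 CPM after HS, so the groups overlapped fully, with a log2 fold change of 0.06 (95% confidence interval -0.42 to 0.54). Srxn1 was at 94.9 and 53.1 CPM in R6/2 controls and at 64.1 and 59.7 CPM after HS. The fitted range over the 10 genes was -0.49 (Nqo1) to 0.49 (Slc7a11), with a median of 0.04 beside 0.00 over all genes. Both treated mice lay above both controls in 1 of the 10 (15.1% of all tested genes) and below them in 0 (14.5%).

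Hsf1-/- mice likewise had 0 of 10 genes called after HS, where 0.00727% of all tested genes were called. DESeq2 called 0, and 1 of 10 had an unadjusted p below 0.05, as had 1211 of all 13754 tested genes. That gene was Srxn1 (mm9 chr2:151931252-151937112, plus strand), at 46.1 and 40.5 CPM in controls and 111 and 80.3 CPM after HS. Its log2 fold change was 1.14 (SE 0.379, edgeR adjusted p = 0.298), and it was called when the fit was limited to the 4 libraries compared (adjusted p = 0.0451). Hmox1 was at 9.08 and 8.70 CPM in Hsf1-/- controls and at 12.5 and 11.7 CPM after HS, a log2 fold change of 0.45 (95% confidence interval -0.05 to 0.94). Nfe2l2 lay lower in both treated mice, at 66.8 and 67.9 CPM against 86.4 and 84.5 CPM, with a log2 fold change of -0.34 (edgeR adjusted p = 0.598). Over the 10 genes both treated mice lay above both controls in 3 (20.8% of all tested genes) and below them in 1 (21.6%). The red cell markers summed to 17.7 to 20.5 CPM in Hsf1-/- controls and 17.1 to 80.4 CPM after HS, so that one treated mouse stood apart from the other three Hsf1-/- mice.

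HSP990 raised Hmox1 alone among the 10 genes in wild type mice, where 1.45% of all tested genes rose and 1.85% were called in either direction. The vehicle mice stood at 24.8 and 17.3 CPM and the HSP990 mice at 87.8 and 73.6 CPM, which was the highest level of Hmox1 in any group. The log2 fold change was 1.94 (SE 0.231, edgeR adjusted p = 1.13e-04), and it was called under every alternative setting and without any 1 of the 4 mice (1.70 to 2.22). Macrophage markers summed to 28.0 to 30.3 CPM in wild type vehicle mice and 29.1 to 53.4 CPM after HSP990, and red cell markers to 17.5 to 26.0 and 7.38 to 31.9 CPM. Their part in the result was not tested. The vehicle mice carried about as much Hmox1 as the mice after HS in the other experiment (21.7 and 26.2 CPM).

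Of the other 9 genes in wild type mice, 1 had an unadjusted p below 0.05 after HSP990, as had 1816 of all 13754 tested genes. Log2 fold changes of the 9 ran from -0.50 (Slc7a11) to 0.84 (Srxn1). Srxn1 was at 118 and 58.8 CPM in vehicle mice and at 139 and 179 CPM after HSP990 (edgeR adjusted p = 0.343). The groups did not overlap, but the vehicle mice were far apart. Osgin1 was at 45.7 and 32.8 CPM and at 60.9 and 62.8 CPM in the same order, without overlap (log2 fold change 0.66, 95% confidence interval -0.17 to 1.49). Nfe2l2 (80.6 and 76.2 CPM with vehicle, 81.5 and 73.9 CPM with HSP990) did not separate the groups. The median over the 10 genes was 0.11, beside 0.00 over all genes, and both treated mice lay above both vehicle mice in 4 genes (24.3% of all tested genes) and below them in 1 (24.7%).

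After HSP990 in R6/2 mice edgeR called 0 of the 10 genes, with 1.43% of all tested genes called, and DESeq2 called 0. At an unadjusted p below 0.05 there were 2 of 10, and 1306 of all 13754 tested genes. Hmox1 was higher in both treated mice, at 18.2 and 21.2 CPM against 11.5 and 13.0 CPM with vehicle (log2 fold change 0.69, SE 0.226, edgeR adjusted p = 0.219). Osgin1 was at 50.3 and 14.4 CPM with vehicle and at 69.4 and 72.9 CPM after HSP990 (1.14, SE 0.393, edgeR adjusted p = 0.253). Its value rests on the low vehicle mouse: without the other vehicle mouse, at 50.3 CPM, the log2 fold change was 2.31 and was called (adjusted p = 0.00165). Srxn1 was at 108 and 53.8 CPM with vehicle and 69.2 and 98.0 CPM with HSP990, and the groups overlapped. Both treated mice lay above both vehicle mice in 3 of the 10 genes (21.2% of all tested genes) and below them in 0 (17.9%).

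All 10 genes had a positive log2 fold change after HSP990 in Hsf1-/- mice, with a median of 0.63 beside 0.01 over all tested genes. By edgeR 0 of the 10 were called, where 0.218% of all tested genes were called, while DESeq2 called 1, Hmox1. Of the 10 genes, 6 had an unadjusted p below 0.05, as had 1304 of all 13754 tested genes. In 6 of 10 genes both treated mice lay above both vehicle mice, which 18.7% of all tested genes also did, and in 0 of 10 did they lie below (19.4%). Nfe2l2 was at 72.6 and 75.6 CPM with vehicle and 103 and 120 CPM with HSP990 (log2 fold change 0.59, SE 0.168, edgeR adjusted p = 0.236). Hmox1 was at 14.9 and 10.2 CPM and at 29.0 and 18.3 CPM in the same order (0.92, SE 0.230, edgeR adjusted p = 0.156). For Hmox1 the adjusted p was 0.0203 by DESeq2 and 0.0229 by edgeR without the HSP990 mouse at 18.3 CPM. The other HSP990 mouse stood apart in adipocyte markers (4 genes, Adipoq, Plin1, Lep and Cidec), which summed to 488 CPM, against 87.1 CPM in the mouse beside it and 80.7 and 220 CPM with vehicle, and 0 of 4 were called. Tkt, a transketolase of the pentose phosphate pathway, was at 655 CPM in that mouse and 51.1 CPM in the other, and at most 113 CPM in the vehicle mice. Without that mouse 9 of the 10 genes had a positive log2 fold change, with a median of 0.51, and the value of Hmox1 was 0.56 and was not called (edgeR adjusted p = 0.946). The number of positive values was also 9 without the other HSP990 mouse, and 8 and 10 without each vehicle mouse.

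Srxn1 in these Hsf1-/- mice was at 39.2 and 65.0 CPM with vehicle and at 116 and 109 CPM with HSP990 (log2 fold change 1.11, SE 0.378, edgeR adjusted p = 0.346). Osgin1 went from 29.2 and 58.1 CPM to 75.2 and 99.4 CPM (1.00, SE 0.394) and Gclc from 11.8 and 14.9 CPM to 24.3 and 18.3 CPM (0.67, SE 0.213), again without overlap. Gsr, Txnrd1 and Nqo1 lay between 0.04 and 0.08 on the log2 scale, and Gclm was at 0.19.

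Slc7a11 (mm9 chr3:50168858-50247535, minus strand) had the largest log2 fold change of the 10 genes in these mice, as a point estimate that was not called. It had 4 and 2 counts in the Hsf1-/- vehicle libraries and 44 and 48 counts in the HSP990 libraries, or 0.188 and 0.0830 CPM against 0.990 and 2.10 CPM. No library of the other groups exceeded 10 counts or 0.414 CPM. The log2 fold change was 3.48 (SE 0.887, edgeR adjusted p = 0.169) and the adjusted p stayed between 0.226 and 0.615 without any 1 of the 4 mice, while DESeq2 gave no adjusted p. Its promoter window carries the pair of ATF4 composite sites printed above. The part of ATF4 or of NRF2 in the level of Slc7a11 was not tested. In a list of ATF4 and its targets 4 of 9 tested genes rose in the same comparison by edgeR, where 0.218% of all tested genes were called. By DESeq2 6 were called, 0 were called lower by edgeR, and the median log2 fold change was 2.07. Ddit4, a target on this list, had a negative log2 fold change that was not called (-1.40, edgeR adjusted p = 0.643).

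Trib3, a pseudokinase induced by ATF4, rose from 1.04 and 2.57 CPM to 65.6 and 143 CPM in Hsf1-/- mice (log2 fold change 5.84, SE 0.461, edgeR adjusted p = 4.22e-06). Sesn2, a stress protein that is also an NRF2 target, rose from 4.10 and 3.78 CPM to 57.2 and 92.4 CPM (4.25, SE 0.287, edgeR adjusted p = 7.99e-07). Ddit3, which encodes CHOP, rose from 8.95 and 11.0 CPM to 44.6 and 92.8 CPM (2.78, SE 0.421, edgeR adjusted p = 0.00490). The call of Ddit3 was lost without either vehicle mouse (adjusted p = 0.110 and 0.0650). With only the 4 libraries compared, the calls of all 3 were lost (adjusted p = 0.177, 0.0835 and 0.318). In wild type mice HSP990 left Trib3 at 4.29 and 3.08 CPM (vehicle 2.77 and 2.37 CPM) and Sesn2 at 9.33 and 6.06 CPM (vehicle 5.05 and 5.39 CPM).

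**Figure D2:**
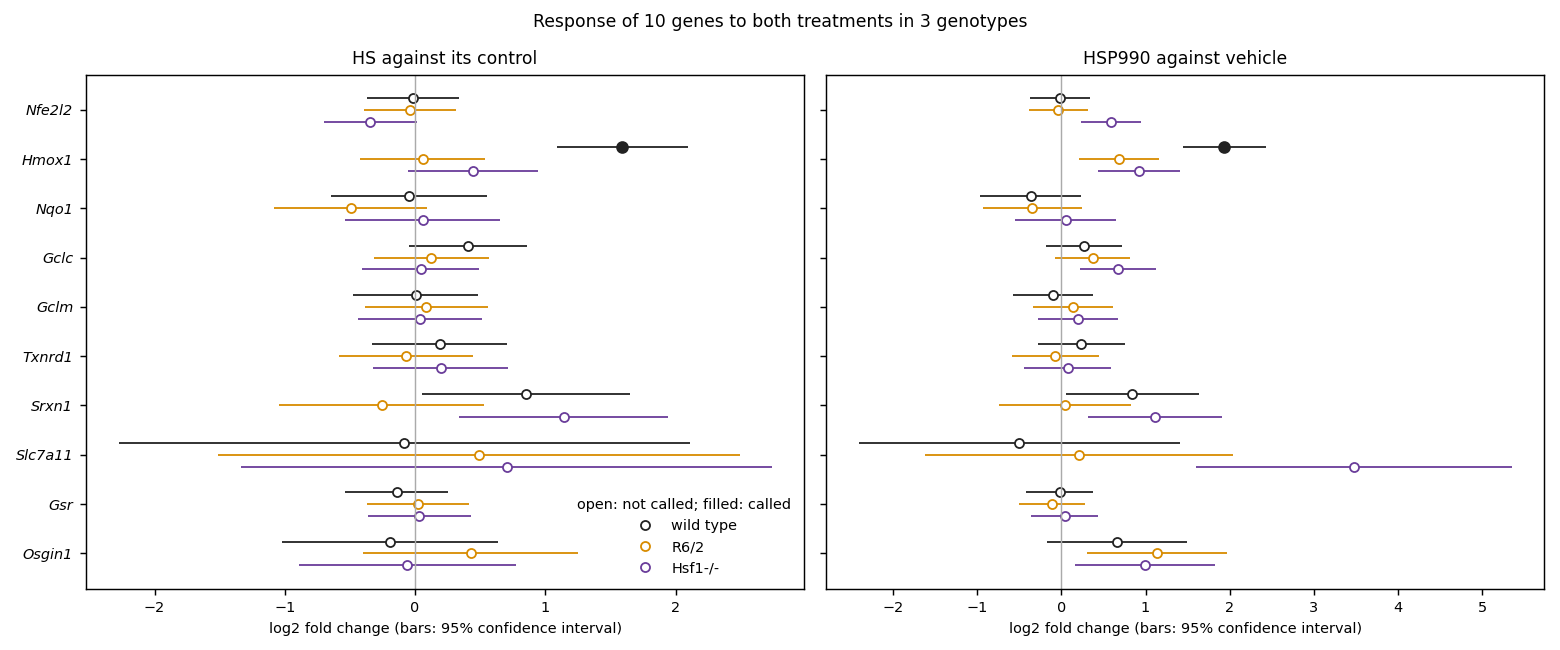
Log2 fold change of each gene (x axis; rows are genes) after HS against control (left) and after HSP990 against vehicle (right) in 3 genotypes (colours), with 95% confidence intervals as bars and filled points where edgeR's adjusted p was below 0.05. Hmox1 in wild type mice is the filled point in each panel (1.59 and 1.94), and all 10 points of Hsf1-/- mice lie above 0 in the right panel.

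The difference between genotypes in a response was tested as an interaction. For Hmox1 the response to HS differed between R6/2 and wild type mice by -1.53 on the log2 scale (R6/2 minus wild type, 95% confidence interval of the difference -2.22 to -0.84), and edgeR did not call it (adjusted p = 0.140), while DESeq2 did (adjusted p = 0.00547). The corresponding differences were -1.15 (-1.85 to -0.45) for HS in Hsf1-/- mice, -1.25 (-1.93 to -0.58) for HSP990 in R6/2 mice and -1.02 (-1.69 to -0.34) for HSP990 in Hsf1-/- mice. Within each experiment the 2 differences were not independent, since they shared its wild type mice. With edgeR, 0 of the 10 genes were called in any of the 4 interactions, in which 0.0727% (HS, R6/2), 0.16% (HS, Hsf1-/-), 0% (HSP990, R6/2) and 0.422% (HSP990, Hsf1-/-) of all tested genes were called. At an unadjusted p below 0.05 there were 1, 1, 1 and 3 of the 10 genes in the same order. Of all 13754 tested genes, 669, 511, 981 and 948 had such a p. DESeq2 called 1 of the 10 in the first interaction and 0 in the other 3. For Srxn1 the interval for HS in Hsf1-/- against wild type mice was -0.83 to 1.41, so the sign of the difference was not resolved with 2 mice a group.

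The 2 treatments were compared within each genotype. By edgeR 0 of the 10 genes were called in wild type mice (2.38% of all tested genes were), R6/2 mice (1.63%) or Hsf1-/- mice (0.145%). At an unadjusted p below 0.05 there were 0, 0 and 1 of the 10, beside 2050, 1448 and 1494 of all 13754 tested genes. DESeq2 called 1, Nfe2l2 in Hsf1-/- mice, where the response to HS minus that to HSP990 was -0.93 on the log2 scale with edgeR (SE 0.238, adjusted p = 0.141) and had an adjusted p of 0.0322 with DESeq2. Without the R6/2 vehicle mouse with 50.3 CPM of Osgin1, that gene was called in R6/2 mice (-1.88, edgeR adjusted p = 0.0202). For Hmox1 in wild type mice the difference was -0.35 (95% confidence interval -1.03 to 0.34). In all these comparisons the experiments also differed in handling, and in sex (wild type and R6/2 mice) or age (Hsf1-/- mice).

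Untreated R6/2 mice were compared with untreated wild type mice over the 4 control and vehicle mice of each genotype, giving the experiments equal weight. Here 30.5% of all tested genes were called, 15.1% higher and 15.4% lower, and 2 of the 10 genes were higher, Nqo1 and Gsr, while 0 of 10 were lower. The median of the 10 genes was 0.19, beside 0.05 over all genes. Scaling matters to this comparison: the 20 most abundant genes held 13.9 to 21.9% of all counts of an R6/2 mouse and 32.5 to 39.8% for the other genotypes, and TMM factors were 1.19 to 1.40 and 0.808 to 0.954. With library size alone as the scale, 7 of the 10 genes were called higher. That scale also raised the median over all tested genes, as given in the closing section. The share of all genes called higher with it is not given here, so this count is not a trait particular to the 10 genes.

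Nqo1 (mm9 chr8:109912125-109927106, minus strand) was at 77.8 and 38.6 CPM in R6/2 controls and 82.3 and 45.7 CPM in R6/2 vehicle mice. In wild type mice it was at 22.6 and 20.9 CPM and at 31.3 and 25.9 CPM, so every R6/2 mouse lay above every wild type mouse. The log2 difference was 1.29 (SE 0.200, edgeR adjusted p = 1.47e-04), and it was called within the HS experiment (1.42), within the HSP990 experiment (1.16) and without any 1 of the 8 mice. R6/2 mice differed widely from each other: the mice at 77.8 and 82.3 CPM had muscle marker sums of 34805 and 36386 CPM, while those at 38.6 and 45.7 CPM had sums of 63002 and 42674 CPM. The part of muscle fibre content in this result was not tested. Treated R6/2 mice kept Nqo1 high, at 38.5 and 44.3 CPM after HS and 54.9 and 46.0 CPM after HSP990. Their muscle marker sums were 56528 and 71906 CPM after HS and 78045 and 44121 CPM after HSP990, in the same order of mice. In both treated pairs the mouse with more Nqo1 thus had the larger sum, the reverse of the untreated pairs.

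Gsr (mm9 chr8:34762995-34808635, plus strand) was at 57.4, 40.8, 55.5 and 47.8 CPM in the untreated R6/2 mice and at 37.6, 36.8, 34.9 and 40.6 CPM in the wild type mice. The groups barely separated, with a log2 difference of 0.43 (SE 0.132, edgeR adjusted p = 0.0213). The call was lost within the HS experiment (0.40, adjusted p = 0.179) and within the HSP990 experiment (0.45, adjusted p = 0.104), and without 5 of the 8 mice left out in turn (adjusted p up to 0.134). Those were the R6/2 control mouse at 57.4 CPM (difference 0.29), the R6/2 vehicle mouse at 55.5 CPM, both wild type controls and the wild type vehicle mouse at 34.9 CPM.

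Hmox1 in untreated R6/2 mice pointed in opposite directions in the 2 experiments. In the HS experiment R6/2 controls (12.8 and 10.6 CPM) lay above wild type controls (7.82 and 8.06 CPM), with a log2 difference of 0.56 that was not called. In the HSP990 experiment R6/2 vehicle mice (11.5 and 13.0 CPM) lay below wild type vehicle mice (24.8 and 17.3 CPM), with a called difference of -0.78 (edgeR adjusted p = 0.0236). Over both experiments the difference was -0.11 (SE 0.163). Untreated R6/2 mice were thus at like levels in both experiments and wild type mice were not, and sex, as read from the Y-linked genes, and handling also differed between the experiments.

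Gclc, Txnrd1 and Nfe2l2 were higher in untreated R6/2 mice by 0.39, 0.38 and 0.26 on the log2 scale and were not called (edgeR adjusted p = 0.0609, 0.113 and 0.108). Each passed the test when 1 R6/2 or wild type mouse was left out: Gclc without the second R6/2 control (adjusted p = 0.0481), the second R6/2 vehicle mouse (0.0419) or the first wild type vehicle mouse (0.0204), Txnrd1 without that R6/2 control (0.0297) and Nfe2l2 without that R6/2 vehicle mouse (0.00309). Differences for Gclm (-0.27), Srxn1 (0.12), Osgin1 (-0.01) and Slc7a11 (-0.78) had confidence intervals that held 0. Osgin1 was called lower without the R6/2 vehicle mouse at 50.3 CPM (-0.60, adjusted p = 0.0416).

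**Figure D3:**
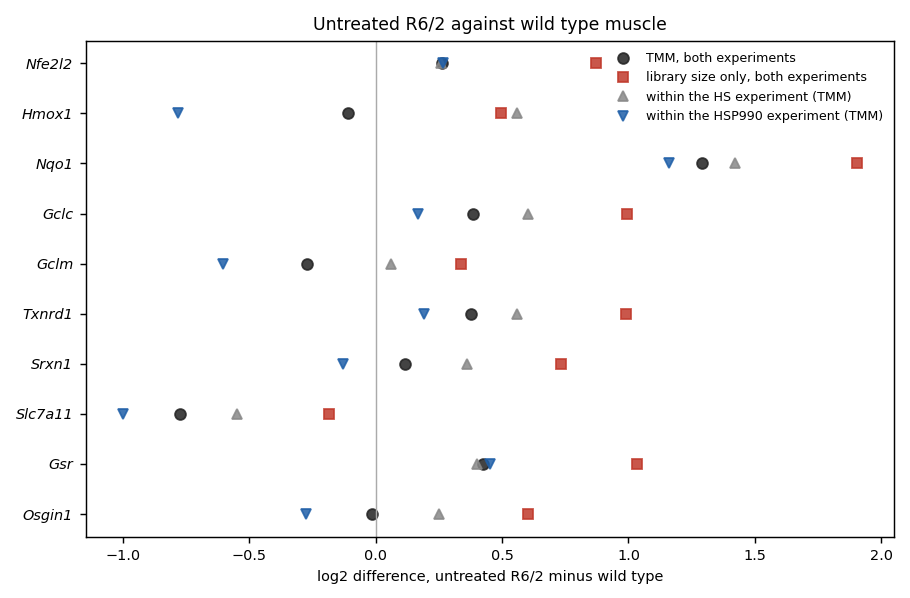
Log2 difference of each gene (x axis) between untreated R6/2 and wild type mice, with symbols for TMM scaling over both experiments, library size alone, and each experiment by itself. Nqo1 stays between 1.16 and 1.91 in all 4, while Hmox1 lies at 0.56 in the HS experiment and at -0.78 in the HSP990 experiment.

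Untreated Hsf1-/- mice had 0 of the 10 genes called against wild type mice by edgeR, where 0.974% of all tested genes were. DESeq2 called 0, and 1 of 10 had an unadjusted p below 0.05, as had 1991 of all 13754 tested genes. That gene was Srxn1, at 46.1, 40.5, 39.2 and 65.0 CPM against 54.1, 61.1, 118 and 58.8 CPM (log2 difference -0.59, SE 0.266, edgeR adjusted p = 0.327). The wild type mouse at 118 CPM sets much of this gap, which was -0.29 without it. Hmox1 differed by -0.29 (95% confidence interval -0.64 to 0.06), and the others lay between -0.44 (Slc7a11) and 0.09 (Nfe2l2).

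Genes that control NRF2 were examined as a group of 10, made up of Keap1, Cul3, Rbx1, Bach1, Bach2, Mafg, Maff, Mafk, Nfe2l1 and Sqstm1. In wild type mice 3 of 10 rose after HS, where 1.59% of all tested genes did, and 0 fell, with a group median of 0.16. Maff, a small MAF protein that lacks an activation domain, rose from 2.97 and 4.40 CPM to 26.2 and 32.0 CPM (log2 fold change 2.97, SE 0.497, edgeR adjusted p = 0.00413). Mafk, a second small MAF, rose from 31.8 and 43.7 CPM to 95.2 and 103 CPM (1.39, SE 0.280, edgeR adjusted p = 0.0133). Bach1, the repressor of Hmox1, rose from 44.4 and 48.6 CPM to 69.6 and 77.2 CPM (0.66, SE 0.126, edgeR adjusted p = 0.0102).

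These calls were less stable than that of Hmox1. The call of Mafk was lost without any 1 of the 4 mice (adjusted p = 0.0555 to 0.215), that of Bach1 without either control or the HS mouse at 77.2 CPM (0.0666 to 0.164) and with library size alone (0.0533), and that of Maff without the control at 2.97 CPM (0.114). Maff was also high after HS in R6/2 mice, at 25.3 and 32.3 CPM against 9.71 and 4.51 CPM in controls, and in Hsf1-/- mice, at 27.4 and 14.6 CPM against 7.45 and 3.73 CPM. The groups did not overlap in either genotype. Neither change was called by edgeR (log2 fold change 2.01 and 1.90, adjusted p = 0.158 and 0.151), while DESeq2 called both (adjusted p = 0.00252 and 0.00551). Mafk in Hsf1-/- mice, at 43.6 and 37.6 CPM in controls and 108 and 54.9 CPM after HS, was likewise called by DESeq2 (0.0368) and not by edgeR (0.192). For Maff the interval for the difference between Hsf1-/- and wild type mice was -2.48 to 0.33.

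In wild type mice given HSP990 Maff was not called: it was at 5.92 and 6.17 CPM with vehicle and at 4.79 and 3.67 CPM with the inhibitor. Bach1 was lower in both treated mice, at 61.5 and 58.0 CPM against 75.4 and 84.9 CPM with vehicle, and was called by DESeq2 (adjusted p = 0.0394) but not by edgeR (log2 fold change -0.42, adjusted p = 0.106). The responses to HS and HSP990 in wild type mice differed for Maff by 3.49 (SE 0.687, edgeR adjusted p = 0.0110) and for Bach1 by 1.08 (SE 0.178, edgeR adjusted p = 0.00459). Treatment cannot be told apart from sex and handling in these differences. The Maff difference was lost without any 1 of 3 mice, the control at 2.97 CPM, the HSP990 mouse at 3.67 CPM and the vehicle mouse at 6.17 CPM (adjusted p up to 0.0723). In R6/2 mice Maff fell after HSP990 by 2.49 on the log2 scale (SE 0.485, edgeR adjusted p = 0.0137), from 8.03 and 22.7 CPM to 2.14 and 3.30 CPM. Without the vehicle mouse at 22.7 CPM the value was -1.55 and was not called (adjusted p = 0.249), as it was not without either HSP990 mouse (0.207 and 0.0767) or with only the 4 libraries compared (0.203).

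In untreated R6/2 mice 3 of the 10 regulators were higher and 2 lower, where 15.1% of all tested genes were higher and 15.4% lower. Mafk (log2 difference 1.27, SE 0.197, edgeR adjusted p = 1.48e-04) was at 99.5, 60.9, 94.6 and 130 CPM, above the wild type range of 31.8 to 43.7 CPM. Maff (1.14) and Nfe2l1, an NRF2 relative that controls proteasome genes (0.77), were the other two, while Rbx1 (-0.36) and Bach1 (-0.26) were lower. The direction of these last ones depends on the scaling: with library size alone Rbx1 (0.25) and Bach1 (0.35) were called higher, and Bach1 was at 0.11 within the HS experiment and -0.62 within the HSP990 experiment. The call of Bach1 was also lost without 5 of the 8 mice left out in turn (adjusted p up to 0.136), without a filter (0.0528) and with only the groups compared (0.0647). Maff was not called within either experiment (adjusted p = 0.222 and 0.0541), nor without the R6/2 control at 9.71 CPM (0.108), the R6/2 vehicle mouse at 22.7 CPM (0.123, log2 difference 0.68) or the wild type control at 2.97 CPM (0.0680). Keap1, the negative regulator of NRF2, was at 102 to 159 CPM over the 24 mice. Cul3 was at 295 to 554 CPM, Sqstm1 at 699 to 1092 CPM, Mafg at 44.8 to 62.1 CPM and Bach2 at 2.72 to 10.2 CPM over the 24 mice.

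**Figure D4:**
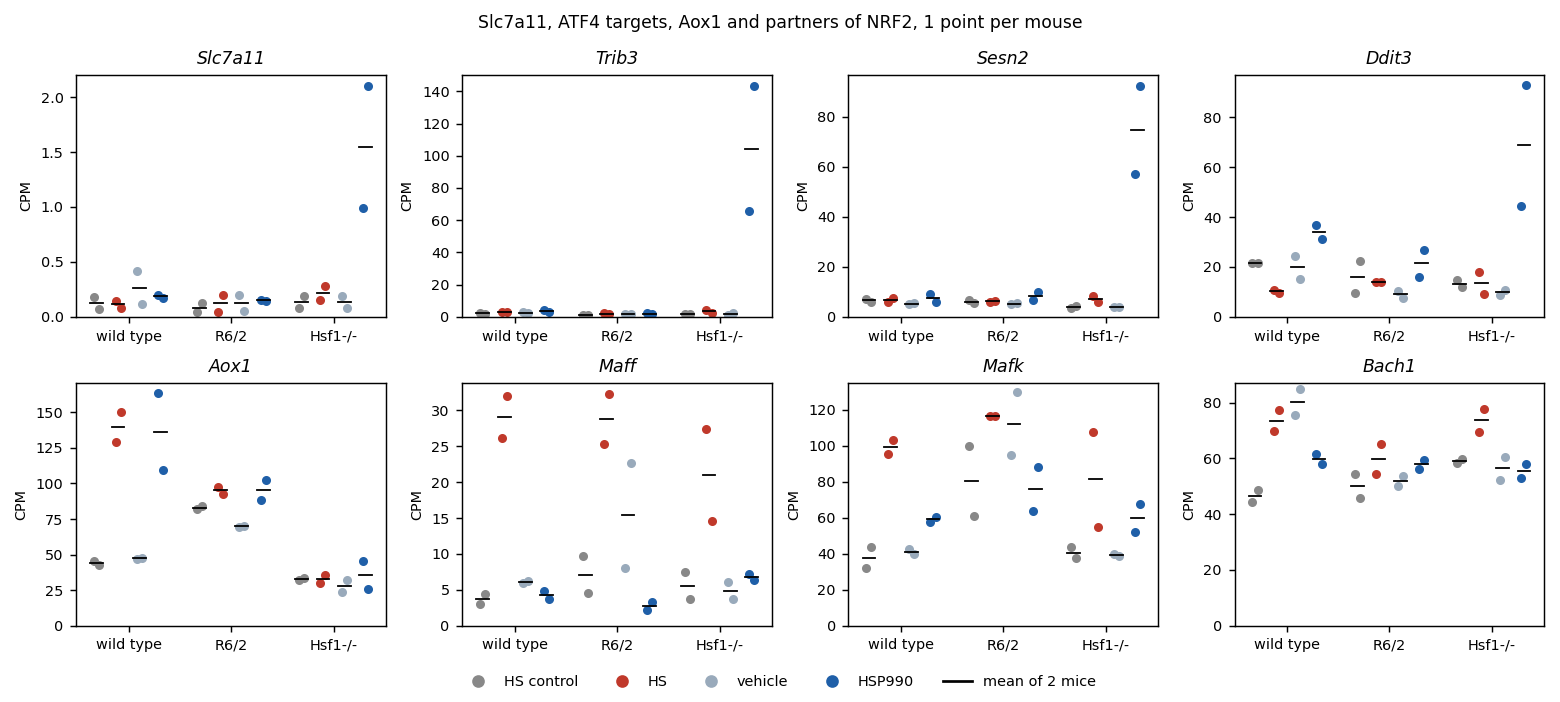
Level (y axis, CPM from 0) of Slc7a11, 3 ATF4 targets, Aox1, Maff, Mafk and Bach1 in 3 genotypes (x axis), with 1 point per mouse coloured by treatment and a bar at the mean of 2 mice. Slc7a11, Trib3 and Sesn2 are high together in the HSP990-treated Hsf1-/- mice, and Maff is above 14 CPM in all 6 HS-treated mice and in 1 R6/2 vehicle mouse.

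Among 10 other detoxification genes that NRF2 can regulate, 1 rose after HS and 2 rose after HSP990 in wild type mice, and 0 fell. Of all tested genes 1.59% rose after HS and 1.45% after HSP990. Aox1, an aldehyde oxidase, rose under both treatments, from 45.2 and 43.0 CPM to 129 and 151 CPM after HS (log2 fold change 1.67, SE 0.221, edgeR adjusted p = 6.22e-04). With HSP990 it went from 47.2 and 47.9 CPM to 163 and 110 CPM (1.52, SE 0.220, edgeR adjusted p = 8.55e-04). In Hsf1-/- mice Aox1 was at 31.9 and 33.4 CPM in controls and 29.9 and 35.4 CPM after HS. The difference between the responses of Hsf1-/- and wild type mice was -1.67 (SE 0.308, edgeR adjusted p = 0.0343), and that call was lost without any 1 of the 8 mice (adjusted p = 0.0745 to 0.286), with library size alone (0.132) and with a replicate block (0.0563). In R6/2 mice Aox1 was at 81.9 and 84.0 CPM in controls and at 97.5 and 92.7 CPM after HS.

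Aldh3a2, a fatty aldehyde dehydrogenase, was the second gene that rose after HSP990, from 26.0 CPM in both vehicle mice to 41.9 CPM in both treated mice (0.69, SE 0.114, edgeR adjusted p = 0.00310). The call was lost without the second vehicle mouse (0.0668). In untreated R6/2 mice 4 of these 10 genes were higher and 0 lower (15.1% and 15.4% of all tested genes), led by the carbonyl reductase gene Cbr1 (0.77), Aox1 (0.73) and Pir (0.69).

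Few genes of the wider antioxidant machinery were called under treatment, as were few of all tested genes. Of all tested genes edgeR called 2.06% in wild type, 0.0436% in R6/2 and 0.00727% in Hsf1-/- mice after HS. After HSP990 the shares were 1.85%, 1.43% and 0.218% in the same order. Of 14 glutathione genes, 7 genes of NADPH supply, 8 genes of heme and iron handling and 4 genes of superoxide and peroxide removal, 0 were called by edgeR after either treatment in any genotype. At an unadjusted p below 0.05 there were 0 to 4 glutathione genes, 0 to 2 NADPH genes, 0 to 3 heme and iron genes and 0 to 1 superoxide and peroxide genes in a comparison. Among all 13754 tested genes, 1117 (HS, R6/2 mice) to 1816 (HSP990, wild type mice) had such a p. DESeq2 called 1 gene of these groups, Gstm5 after HSP990 in Hsf1-/- mice (a gene named after its values were seen). Of 12 thioredoxin and peroxiredoxin genes, edgeR called 1, Sesn1, which rose after HS in wild type mice, from 34.0 and 37.8 CPM to 112 and 114 CPM (1.65, SE 0.388, edgeR adjusted p = 0.0348). That call was lost without any 1 of the 4 mice (adjusted p = 0.124 to 0.295). In Hsf1-/- mice Sesn1 was at 37.4 and 26.9 CPM in controls and 140 and 44.3 CPM after HS, and was called by DESeq2 (adjusted p = 0.00770) but not by edgeR (1.52, adjusted p = 0.157).

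Ddit4, an ATF4 target that restrains mTORC1, rose after HS in wild type mice from 8.14 and 10.9 CPM to 505 and 492 CPM (5.71, SE 0.969, edgeR adjusted p = 0.00466), a call lost without either control (0.120 and 0.0764). It also lay higher after HS in R6/2 mice (98.1 and 14.7 CPM in controls, 320 and 273 CPM after HS) and in Hsf1-/- mice (29.5 and 46.6 CPM, 172 and 292 CPM). The groups did not overlap, and edgeR called neither change (2.39 and 2.61, adjusted p = 0.384 and 0.271). After HSP990 in R6/2 mice Ddit4 fell from 50.2 and 281 CPM to 4.99 and 7.09 CPM (-4.77, SE 0.928, edgeR adjusted p = 0.0137). That call was lost without the vehicle mouse at 281 CPM (-3.05, adjusted p = 0.188) or without either HSP990 mouse (0.201 and 0.121). In untreated R6/2 mice Ddit4 was higher (2.68), while Ddit3 (-0.79) and Atf4 (-0.56) were lower, and with library size alone Ddit3 was not called (-0.18) and Atf4 changed sign (0.05).

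In untreated R6/2 muscle, where 30.5% of all tested genes were called, the share called was 21.4% of the glutathione genes and 14.3% of the NADPH genes, both below that background, and 6 of 12, 4 of 8 and 2 of 4 in the other groups. Glutathione genes were higher in 2 and lower in 1 of 14, with the glutathione transferase genes Gstm2 (1.05) and Gstm1 (0.57) higher and Gpx1 (-0.76) lower. Thioredoxin and peroxiredoxin genes were higher in 2 and lower in 4 of 12, with Sesn1 (1.24) higher and the mitochondrial peroxidases Prdx3 (-0.93) and Prdx5 (-0.67) lower. Catalase (Cat) was higher by 1.12 and the mitochondrial superoxide dismutase Sod2 lower (-0.74). Heme and iron genes were lower in 4 of 8, led by the iron exporter Slc40a1 (-0.61), Blvra (-0.43) and Abcb6 (-0.40), and of 7 NADPH genes 1 was lower, Tkt (-2.57). Adipocyte markers summed to 26.6 to 51.8 CPM in untreated R6/2 mice and 33.8 to 355 CPM in untreated wild type mice, with 2 of 4 lower, and their part in the Tkt result was not tested. With library size alone as the scale, Gpx1 (-0.16), Prdx5 (-0.06), Sod2 (-0.13) and Slc40a1 were not called, and Blvra (0.18) and Abcb6 (0.20) changed sign. In untreated Hsf1-/- mice 1 gene of all these groups differed, Prdx6 (-0.41, edgeR adjusted p = 0.0383), a call lost without 6 of the 8 mice.

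The genes whose group means followed Hmox1 most closely over the 12 groups, among 11002 tested genes with a mean of at least 1 CPM outside the lists used here, were Hspb8 (Pearson's r = 0.91), Ptges3 (0.91) and Arrdc4 (0.90). Hspb8 encodes a small heat shock protein, Ptges3 the HSP90 cochaperone p23 and Arrdc4 an arrestin-domain protein. Hspb8 was at 541 to 577 CPM in wild type controls, 753 to 922 CPM after HS, 599 to 851 CPM with vehicle and 1763 to 1820 CPM after HSP990. Among the 10 genes themselves, 2 of 45 pairs had r above 0.8 over the group means, Hmox1 with Srxn1 (0.86) and Nqo1 with Gsr (0.85), and the median pair had r = 0.39. The 12 points come from 2 experiments and share a common scaling, and these values are given as a description.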

How the data were processed

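The authors made strand-specific polyA libraries from 24 mice, mapped reads to mm9 with Bowtie (DESeq2 is also named in the submitters' notes) and deposited raw gene counts without normalization. The counting program and annotation are not given in the sources used here. Gene numbers were matched to symbols for 18594 of 18669 genes. The 13754 genes that reached 2 counts in 10 or more libraries were TMM-scaled and fitted as 12 groups with edgeR 4.0.16 (limma 3.58.1, R 4.3.3) on 12 residual degrees of freedom, with quasi-likelihood tests in 15 comparisons and Benjamini-Hochberg adjustment within each, at 0.05. P-values rest on the spread between mice of a group, estimated for each gene over all 12 groups together and not from the groups compared alone. The estimate also borrows from other genes, with 16.6 degrees of freedom for Hmox1. The spread between mice, as chi-square per degree of freedom, was 22.7 to 31.5 in wild type, 18.0 to 75.1 in Hsf1-/- and 52.4 to 106 in R6/2 groups. A shared estimate can be too small for the groups with the larger spread and too large for the others. An exact permutation test of 2 against 2 cannot go below 0.333. RPKM were computed from exon lengths of the mm9 annotation. The genes and lists were chosen with earlier results of these data known. All 10 genes are named throughout, the 10 regulators at least once, and up to 3 called genes with the largest change per other list and comparison. Transcripts of the 10 genes had 0 near-identical copies elsewhere in the genome (minimap2 2.31-r1302, at least 90% identity over 50% of a transcript). Of 126 listed genes, 3 were not in the table and not used here. Alternatives were scaling by RLE or by library size only, the filterByExpr filter or none, only the groups compared, a replicate block, DESeq2 1.42.0, each experiment alone, and leaving out each mouse. The procedure was also run on simulated data, and the outcome of that run is not given here.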

Additional observations from a re-analysis of the deposited data

Results flagged for a closer look

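The response of Aox1 to HS differed between Hsf1-/- and wild type mice by -1.67 on the log2 scale, a difference between genotypes that passed the interaction test with edgeR (SE 0.308, adjusted p = 0.0343). The call was lost without any 1 of the 8 mice (adjusted p = 0.0745 to 0.286), with a replicate block (0.0563) and with library size alone (0.132). Trib3 responded to HSP990 more strongly in Hsf1-/- than in wild type mice by 5.32 (SE 0.596, edgeR adjusted p = 1.10e-04). For Sesn2 the same difference was 3.69 (SE 0.378, edgeR adjusted p = 5.45e-05). Trib3 and Sesn2 kept their calls without any 1 of the 8 mice, with 4.66 to 6.14 for Trib3 and 3.31 to 4.03 for Sesn2. Hsf1-/- mice were younger than wild type mice in both experiments, and in the HS experiment they also differed in Y-linked counts, so genotype cannot be told apart from these.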

How the results depend on the processing

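With 2 mice per group, the smallest treatment change called by edgeR in the gene lists was 0.66 (Bach1 after HS in wild type mice). The rises of Hmox1 in wild type mice kept direction and call in all settings, and the number of the 10 genes called was unchanged with RLE size factors, no filter and filterByExpr in all 15 comparisons. It became 1 instead of 0 for HS in Hsf1-/- mice with only the groups compared, and with DESeq2 for HSP990 in Hsf1-/- mice, for the HS difference between R6/2 and wild type mice and for HS against HSP990 in Hsf1-/- mice. In untreated R6/2 mice it was 7 with library size only and 1 within the HS experiment, instead of 2. Leaving out each mouse gave 1 to 4 there, and 0 to 1 for HSP990 in R6/2 mice, HSP990 in Hsf1-/- mice and HS against HSP990 in R6/2 mice. Library size only moved the median of all genes in untreated R6/2 mice from 0.05 to 0.66. With it the untreated R6/2 differences turned to 0.50 for Hmox1, 0.34 for Gclm, 0.60 for Osgin1, 0.18 for Blvra, 0.20 for Abcb6, 0.25 for Rbx1, 0.35 for Bach1 and 0.0461 for Atf4. Within the HS experiment they turned to 0.56 for Hmox1, 0.0620 for Gclm, 0.25 for Osgin1 and 0.11 for Bach1, and within the HSP990 experiment to -0.13 for Srxn1. Without single mice they ran from -0.23 to 0.0288 for Hmox1, -0.18 to 0.41 for Srxn1 and -0.60 to 0.30 for Osgin1. The cause of these changes was not tested.

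The labels number the mice of each group but do not say that a number pairs mice, and of 66 pairs of groups 12 correlated above 0.1 and 13 below -0.1 (-0.38 to 0.39). A replicate block changed no count of the 10 genes (1 for HS and 1 for HSP990 in wild type mice, 2 in untreated R6/2 mice). Among single genes it ended the calls of the Aox1 difference (-1.67, adjusted p = 0.0563) and of Ddit3 in untreated R6/2 mice (-0.79, adjusted p = 0.0505).

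Over all tested genes, DESeq2 called more than edgeR: 529 against 283 for HS and 547 against 255 for HSP990 in wild type mice, 128 against 6 and 372 against 197 in R6/2 mice, and 165 against 1 and 141 against 30 in Hsf1-/- mice.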
